A study of Xenopus laevis with 12 samples.

Results

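Keratins are the intermediate filament proteins of epithelial cells. Each filament is built from pairs of an acidic type I and a basic type II keratin, and the filaments are anchored at desmosomes and hemidesmosomes, where they carry the mechanical load of the skin. Frogs express different keratins in the embryonic epidermis, in the larval skin of the tadpole and in the adult skin, so keratin transcripts are common markers of skin stage in Xenopus. The genes described here were chosen by name: every gene of the Xenopus laevis gene table whose symbol begins with krt and a digit. That gave 71 of the 37018 genes in the files, with 41 type I and 30 type II genes by their place in the keratin clusters and by family knowledge. The rule reads the symbol alone, but the keratins were proposed as a group with earlier results of these data known. Symbols end in .L or .S for the long and short subgenome of this allotetraploid frog, the copies on both being homeologs, and 28 of 43 gene names had both.

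The libraries came from whole heads of Xenopus laevis tadpoles, as RNA of 4 groups with 3 libraries each: thioridazine at Nieuwkoop and Faber (NF) stage 47, control at stage 47, thioridazine at stage 45 and control at stage 45. Thioridazine, a phenothiazine antipsychotic and dopamine receptor blocker, was given at 90 µM to embryos of stages 14 to 26, and the treated heads were taken from tadpoles with malformed faces. Controls were wild type, and both were held at 18 °C during that window. The labels call the replicates biological and do not give the clutch or the number of heads in a library, so a p-value reflects no more than how far these libraries differ within a group. Selection for malformed faces is part of the thioridazine groups, and its share in any difference cannot be told apart from that of the drug.

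Libraries held 11998636 to 16933777 counts over 30733 to 31514 genes with a count, of which keratins took 0.867 to 1.21%. Levels are CPM, with library sizes adjusted by the TMM method. The lists of head tissue markers were present in every library, with lens genes summing to at least 5208 CPM, cartilage genes to at least 2698 CPM and neuron genes to at least 2395 CPM. Control replicate 3 of stage 47 stood apart in digestive enzymes: cela1.1.S, a pancreatic elastase, was at 98.9 CPM there and at no more than 0.339 CPM in the other libraries. The heads are mixtures of tissues, so fewer cells of a type and less RNA per cell cannot be told apart in any result below. Reads of near-identical homeologs and numbered copies may have been split between them, which makes the level of a single copy uncertain.

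Of the 71 keratins, 42 had enough counts to be tested (25 type I, 17 type II) and 29 did not. The untested genes held at most 72 counts over the 12 libraries together, 19 of them had 10 or fewer, and krt78.4.S and krt50.L had none. Among them were 11 of the krt78 copies, 10 of the 12 genes numbered krt50 to krt59, and krt51.L, which carries the name of an adult skin keratin as a synonym. On average over all libraries 15 keratins lay above 100 CPM, 11 between 10 and 100, 13 between 1 and 10, and 32 at 1 CPM or less. The 8 with the most counts held 78.6% of the keratin sum, and the krt12.5, krt62 and krt7 homeolog pairs alone held 68.6%. CPM takes no account of transcript length, so these are shares of reads and not of molecules. The table has no gene with the symbol krt5; the older krt5 names are synonyms of krt61, krt62, krt7, krt55 and krt78.7.

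Keratin transcripts as a whole stood higher at stage 47 than at stage 45. The 71 genes summed to 11008, 11573 and 11380.4 CPM in the thioridazine libraries of stage 47, against 9723, 10489 and 9891 CPM in those of stage 45. Control heads had 12240.1, 12015 and 10678 CPM at stage 47, against 8005, 9257 and 9065 CPM at stage 45. Neither pair of stages overlapped. As means, the sum was 1.13 times as high at stage 47 as at stage 45 in thioridazine heads and 1.33 times in control heads.

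Between treatments the order of the sums changed with stage. At stage 45 they were 10034 ± 403 CPM in thioridazine heads and 8776 ± 675 CPM in controls (SD, n = 3 each), without overlap and with a ratio of 1.14. At stage 47 they were 11320.3 ± 287 CPM in thioridazine heads and 11644 ± 844 CPM in controls, with a ratio of 0.972 and overlapping libraries. The sums are descriptions and were not tested.

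Marker lists of other head tissues also differed between the groups. In thioridazine heads, for stage 47 over stage 45, 56 of 57 lens genes had log2 fold changes above 0 and 17 of 20 cartilage genes below 0, while skeletal muscle was divided, with 7 of 13 genes above 0. In control heads 56 of 57 lens, 18 of 20 cartilage and 12 of 13 skeletal muscle genes had log2 fold changes below 0 between stages. The lens list summed to 6908 to 9600.4 CPM at stage 47, against 5208 to 6900.3 CPM at stage 45 in thioridazine heads, and to 6313 to 9772 CPM at stage 47, against 7415 to 13407 CPM at stage 45 in control heads. The cartilage list summed to 3015 to 3557 CPM at stage 47, against 3889 to 4689 CPM at stage 45 in thioridazine heads, and to 2698 to 3893 CPM at stage 47, against 4087 to 5064 CPM at stage 45 in control heads. The mean lens sum was higher at stage 47 than at stage 45 in thioridazine heads, without overlap, and lower in control heads, with overlap, while the keratin sum was higher at stage 47 in both. The cement gland list also summed higher at stage 47, without overlap in either treatment. Its sums were 1217 to 1517 CPM at stage 47 against 736 to 1043 CPM at stage 45 in thioridazine heads. In control heads they were 1496 to 1716 CPM against 730 to 1076 CPM. Of its 6 genes, 4 in thioridazine and 3 in control heads had log2 fold changes above 0 between stages. So did 12 and 16 of 17 ciliated epithelium genes.

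For thioridazine over control at stage 45, 57 of 57 lens, 13 of 13 skeletal muscle and 14 of 15 neuron genes had log2 fold changes below 0, though none passed. The lens list summed to 5208 to 6900.3 CPM in thioridazine heads, against 7415 to 13407 CPM in control heads, without overlap. Skeletal muscle summed to 6811 to 8515 CPM in thioridazine heads, against 8457 to 12534 CPM in control heads, and neurons to 2395 to 2874 CPM in thioridazine heads, against 2717 to 2912 CPM in control heads, both with overlap. At stage 47, where the keratin sums overlapped, 13 of 57 lens, 13 of 13 skeletal muscle and 12 of 15 neuron genes were below 0. The part of tissue composition in the keratin values was not tested.

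Type I and type II keratins kept nearly the same proportion throughout. Type I genes summed to 5234 ± 128 CPM in thioridazine heads and 5432 ± 416 CPM in control heads at stage 47, and to 4699.9 ± 329 and 4079.8 ± 295 CPM in thioridazine and control heads at stage 45. Type II genes summed to 6087 ± 161 CPM in thioridazine heads and 6213 ± 429.5 CPM in control heads at stage 47, and to 5334 ± 96.3 and 4696 ± 381 CPM in thioridazine and control heads at stage 45. The ratio of the type I to the type II sum lay between 0.843 and 0.939 in all 12 libraries, with group means of 0.860 (thioridazine) and 0.874 (control) at stage 47 and 0.881 (thioridazine) and 0.869 (control) at stage 45.

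**Figure D1:**
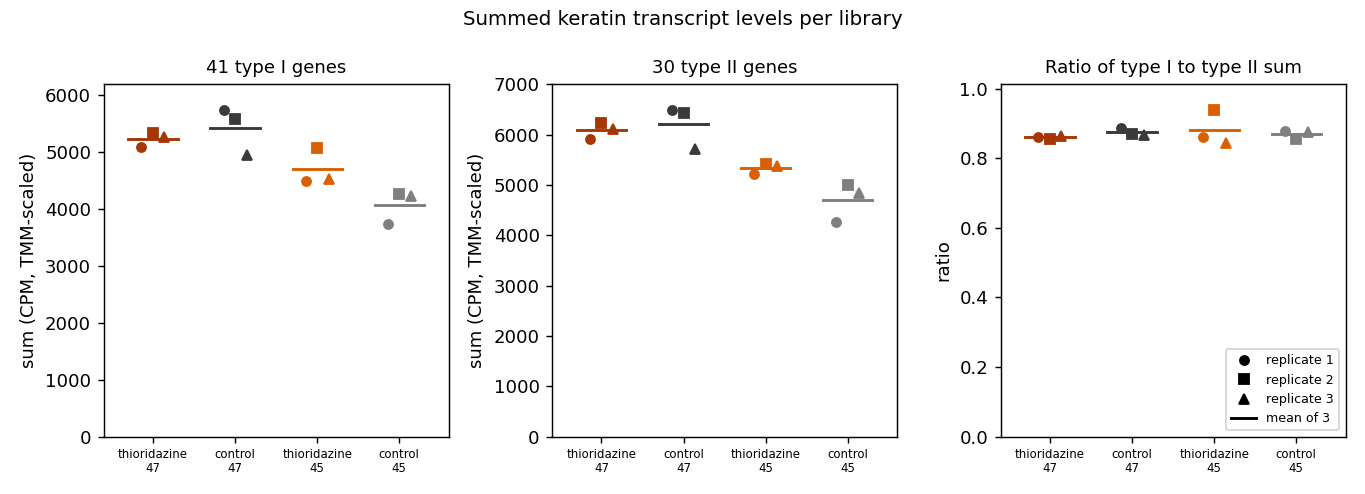
Summed CPM of the 41 type I and 30 type II keratin genes and the ratio of both sums, per library (symbols are replicates 1 to 3, bars are means of 3). The means of both sums are higher at stage 47 than at stage 45 in either treatment, and the ratio stays between 0.843 and 0.939.

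The comparison of stages asks which keratins changed while tadpoles of the same treatment passed from stage 45 to stage 47. In thioridazine heads 9 of the 42 tested keratins rose and 1 fell at an adjusted p under 0.05 (edgeR quasi-likelihood test, Benjamini-Hochberg over 27050 genes), which is 21.4% of keratins higher against 2.09% of all genes tested, and 2.38% lower against 2.77%. In control heads 12 rose and 1 fell, 28.6% higher against 3.03% of all genes, and 2.38% lower against 3.21%. Of the raised keratins 8 were shared, which is 88.9% of those of the thioridazine heads and 66.7% of those of the controls: krt78.1.L, krt23.S, krt23.L, krt15.1.S, krt15.2.L, krt62.L, krt12.2.L and krt8.2.S. The lowered one, krt12.4.S, was the same in both. These contrasts have no library in common, but a fit of all 12 libraries together gave both, so they are not independent. The share of all called genes common to both treatments is not given here. The overlap therefore does not set keratins apart from other genes.

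Most keratins had log2 fold changes above 0 between stages. In thioridazine heads 31 of 42 log2 fold changes were above 0, against 49.2% of all genes tested, with a median of 0.20 beside -0.01 over all genes. In control heads 37 of 42 were above 0, against 48.6% of all genes, with a median of 0.39 beside -0.01. Libraries of the stages did not overlap, with stage 47 higher, for 15 keratins in thioridazine heads (11.4% of all genes) and for 19 in control heads (11.7% of all genes). Type I and type II medians were 0.06 and 0.38 in thioridazine heads and 0.39 and 0.40 in control heads. None of the 42 keratins passed the test of whether the treatment effect differed between the stages (edgeR; 0 of 27050 genes passed, with 0 keratins higher and 2 lower at an unadjusted p under 0.05, beside 1.16% and 0.969% of all genes), which is also the test of whether the stage change differed between treatments.

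**Figure D2:**
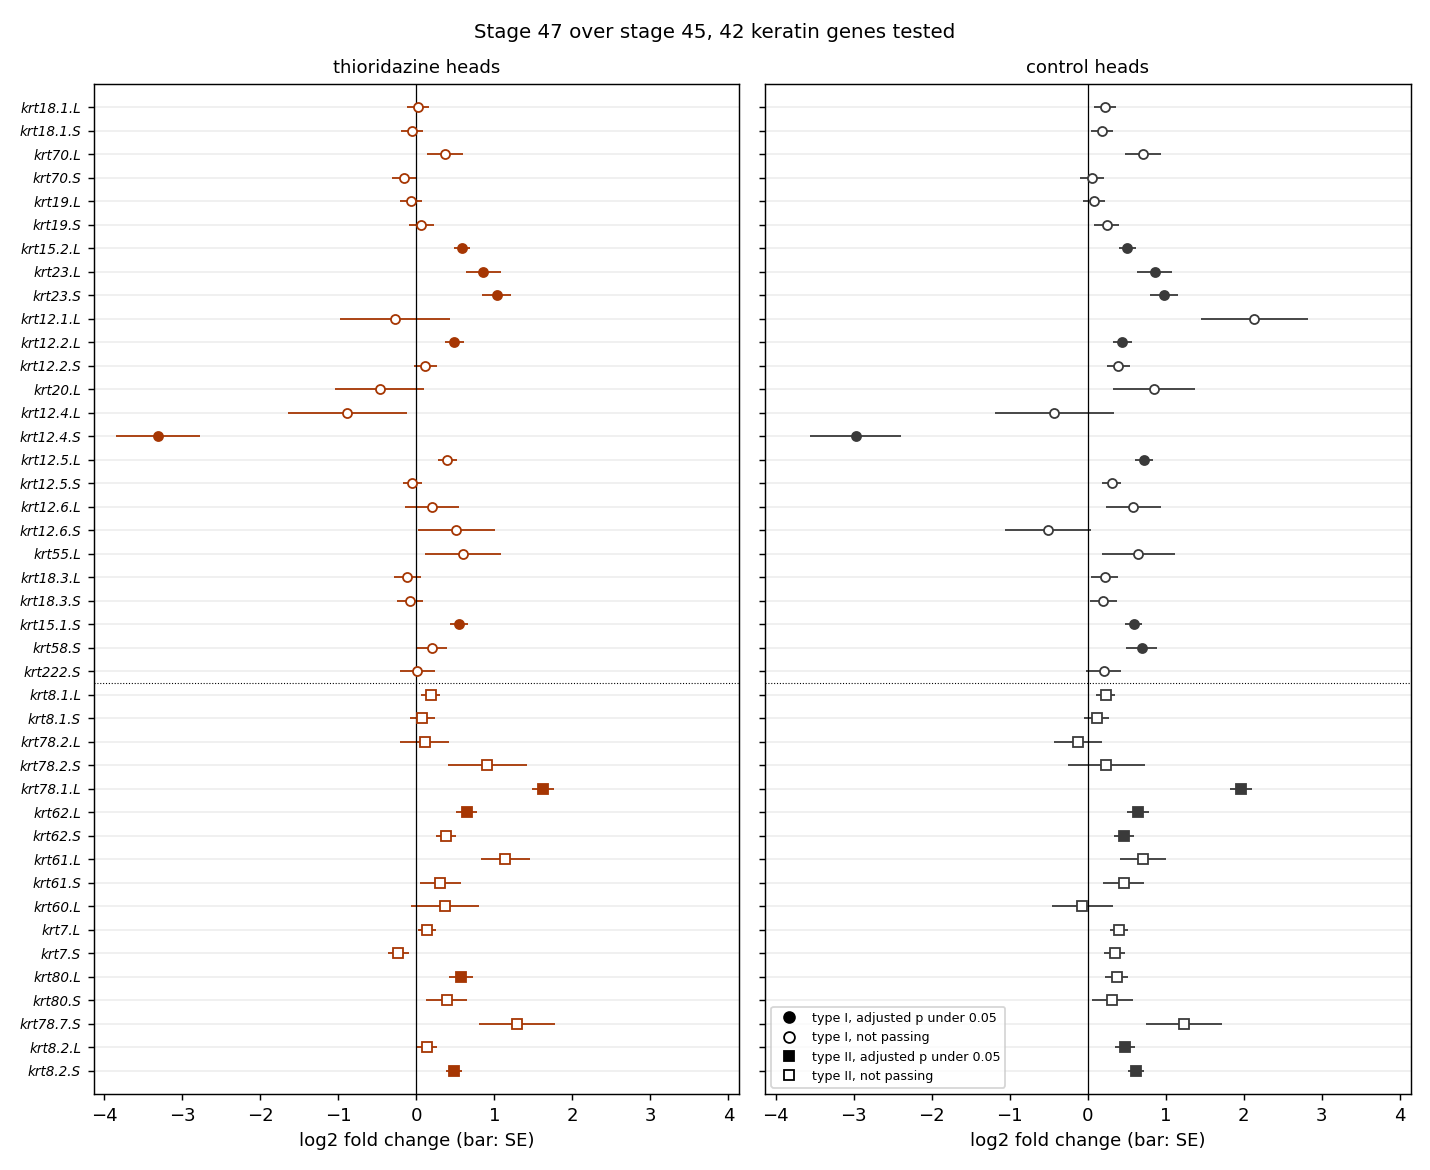
Log2 fold change of stage 47 over stage 45 with its SE for the 42 keratins tested, in thioridazine heads (left) and control heads (right). Filled symbols pass an adjusted p of 0.05; krt78.1.L is the highest of them in both panels and krt12.4.S the only one below 0.

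The stage change with the smallest p among keratins was that of krt78.1.L (gene 108708658), a type II gene of the krt78 group, which in mammals is expressed in stratified epithelia. krt78.1.L had 78.8, 71.0 and 79.3 CPM in thioridazine heads of stage 47, against 21.5, 27.7 and 25.3 CPM in those of stage 45. Control heads had 117, 92.3 and 83.1 CPM at stage 47, against 23.9, 23.0 and 27.9 CPM at stage 45. Every stage 47 library lay above every stage 45 library. The log2 fold change was 1.62 (SE 0.14, adjusted p = 0.000185) in thioridazine heads and 1.96 (SE 0.14, adjusted p = 1.52e-05) in control heads. Of the 15 krt78 copies only 4 were tested, and the other 3, krt78.2.L, krt78.2.S and krt78.7.S, had log2 fold changes of 0.10, 0.91 and 1.29 in thioridazine heads and -0.13, 0.24 and 1.24 in control heads, none of which passed.

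The larval keratin krt62.L rose in both treatments. The type II gene krt62 carries the synonym xlk, the Xenopus larval keratin of tadpole skin. krt62.L had 893, 833 and 735 CPM in thioridazine heads of stage 47, against 588, 507 and 482 CPM in those of stage 45. Control heads had 816, 797 and 584 CPM at stage 47, against 505, 467 and 436 CPM at stage 45. The stages did not overlap in either treatment, and the log2 fold change of krt62.L (gene 373584) was 0.64 (SE 0.14, adjusted p = 0.0191) in thioridazine heads and 0.64 (SE 0.14, adjusted p = 0.0173) in control heads. Its homeolog krt62.S (gene 100036944) was also without overlap. krt62.S had 1425, 1629.5 and 1804 CPM in thioridazine heads of stage 47, against 1096, 1303 and 1344 CPM in those of stage 45. Control heads had 1490.2, 1452 and 1419.5 CPM at stage 47, against 957, 1014 and 1192 CPM at stage 45. For krt62.S the log2 fold change was 0.38 (SE 0.13, adjusted p = 0.109) in thioridazine heads and 0.46 (SE 0.13, adjusted p = 0.0459) in control heads, so that it passed in control heads alone. Among 19 alternative settings it passed in 7 in control heads and in 2 in thioridazine heads. The difference between the treatments in the stage change of krt62.S did not pass (log2 difference -0.09, adjusted p = 1.00).

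The type I gene krt15.2.L (gene 779065), whose synonym xlk2 names it as a second larval keratin, also rose in both treatments. krt15.2.L had 542, 587 and 570.1 CPM in thioridazine heads of stage 47, against 397, 378 and 358 CPM in those of stage 45. Control heads had 509, 534 and 427 CPM at stage 47, against 336, 359 and 339 CPM at stage 45. All 6 libraries of stage 47 lay above all 6 of stage 45. Its log2 fold change was 0.58 (SE 0.11, adjusted p = 0.00830) in thioridazine heads and 0.51 (SE 0.11, adjusted p = 0.0148) in control heads. The other copy of that name, krt15.1.S (gene 444694), rose too. Its symbol is that of a keratin of the basal layer of stratified epithelia in mammals. Its synonyms name it krt13 instead, so the name does not settle its layer. krt15.1.S had 72.8, 79.5 and 78.0 CPM in thioridazine heads of stage 47, against 48.2, 50.4 and 59.3 CPM in those of stage 45. Control heads had 107, 111 and 87.1 CPM at stage 47, against 65.8, 72.1 and 65.6 CPM at stage 45. Within each treatment the stages did not overlap, and the log2 fold change was 0.54 (SE 0.11, adjusted p = 0.0152) in thioridazine heads and 0.59 (SE 0.11, adjusted p = 0.00968) in control heads.

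The krt12 copies, the large type I group of the frog, did not all move one way. krt12.5.L had 1714, 1696 and 1599 CPM in thioridazine heads of stage 47, against 1278, 1362 and 1164 CPM in those of stage 45. Control heads had 1895, 1762 and 1476 CPM at stage 47, against 1029, 1007 and 1087 CPM at stage 45. For krt12.5.L (gene 108700758) the stages did not overlap in either treatment, and the log2 fold change was 0.40 (SE 0.12, adjusted p = 0.0668) in thioridazine heads and 0.72 (SE 0.12, adjusted p = 0.00529) in control heads, past the threshold in control heads alone. The difference of those changes did not pass (log2 difference -0.32, adjusted p = 1.00). In thioridazine heads krt12.5.L passed in 4 of 19 alternative settings. krt12.5.S had 1258, 1367 and 1397 CPM in thioridazine heads of stage 47, against 1261, 1587 and 1318 CPM in those of stage 45. Control heads had 1404, 1438 and 1304 CPM at stage 47, against 979, 1165 and 1205 CPM at stage 45. Thioridazine libraries of krt12.5.S (gene 398464) overlapped between stages and control libraries did not. The log2 fold change of krt12.5.S was -0.05 (SE 0.12, adjusted p = 0.884) in thioridazine heads and 0.31 (SE 0.12, adjusted p = 0.160) in control heads.

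The frontal gland keratin krt12.2, named after the hatching gland of the embryo's head, had 1 copy that rose. The level of krt12.2.L (gene 100653510) averaged 329 ± 6.88 CPM at stage 47 against 235 ± 18.4 CPM at stage 45 in thioridazine heads, and 354 ± 63.7 against 259.8 ± 2.95 CPM in control heads (SD, n = 3 each). Its log2 fold change was 0.49 (SE 0.12, adjusted p = 0.0343) in thioridazine heads and 0.44 (SE 0.12, adjusted p = 0.0436) in control heads. For krt12.2.S the values were 0.11 and 0.39 in thioridazine and control heads, neither of which passed.

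The 1 keratin that fell was krt12.4.S (gene 379143), known as epidermal keratin and widely used as a marker of the embryonic epidermis. krt12.4.S had 18.0, 4.87 and 5.68 CPM in thioridazine heads of stage 47, against 110.1, 131 and 48.5 CPM in those of stage 45. Control heads had 3.57, 4.31 and 4.11 CPM at stage 47, against 21.1, 39.1 and 34.9 CPM at stage 45. Every stage 47 library lay below every stage 45 library of the same treatment, and thioridazine replicate 1 was the highest of the stage 47 libraries. The log2 fold change was -3.31 (SE 0.54, adjusted p = 0.0135) in thioridazine heads and -2.98 (SE 0.58, adjusted p = 0.0219) in control heads. The call in thioridazine heads was lost without thioridazine replicate 3 of stage 47 (adjusted p = 0.0508) or with a fit of the thioridazine libraries alone (adjusted p = 0.0971), and that in control heads without control replicate 2 or 3 of stage 45 or any control replicate of stage 47 (adjusted p 0.0563 to 0.0866). All of these fits gave log2 fold changes below 0.

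The homeolog krt12.4.L (gene 379535) did not pass. krt12.4.L had 106, 17.7 and 40.4 CPM in thioridazine heads of stage 47, against 157, 67.9 and 78.5 CPM in those of stage 45. Control heads had 98.8, 21.2 and 32.5 CPM at stage 47, against 95.3, 43.5 and 64.5 CPM at stage 45. Replicate 1 was the highest library of its group in all 4 groups, and the stages overlapped. Its log2 fold change was -0.88 (SE 0.77, adjusted p = 0.604) in thioridazine heads and -0.43 (SE 0.77, adjusted p = 0.817) in control heads.

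Both krt23 homeologs, type I genes, rose in both treatments. krt23.S had 11.5, 11.8 and 12.9 CPM in thioridazine heads of stage 47, against 5.69, 4.25 and 7.69 CPM in those of stage 45. Control heads had 14.9, 15.6 and 14.6 CPM at stage 47, against 7.15, 7.07 and 8.61 CPM at stage 45. The stages did not overlap, and krt23.S (gene 108702471) changed on the log2 scale by 1.03 (SE 0.18, adjusted p = 0.00774) in thioridazine heads and 0.98 (SE 0.18, adjusted p = 0.00851) in control heads. The level of krt23.L (gene 108700757) averaged 11.4 ± 1.05 CPM at stage 47 against 6.27 ± 1.76 CPM at stage 45 in thioridazine heads, and 12.1 ± 1.42 against 6.64 ± 1.89 CPM in control heads, the log2 fold change being 0.86 (SE 0.23, adjusted p = 0.0458) in thioridazine heads and 0.86 (SE 0.23, adjusted p = 0.0389) in control heads.

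The krt7 pair, type II genes named after a keratin of simple and glandular epithelia in mammals, did not pass between stages. A synonym names krt7.L krt5.7 instead, so the name does not settle its epithelium. krt7.L had 1260.0, 1269 and 1324 CPM in thioridazine heads of stage 47, against 1151, 1103 and 1257 CPM in those of stage 45. Control heads had 1443, 1419 and 1317 CPM at stage 47, against 908, 1159 and 1107 CPM at stage 45. The stages did not overlap for krt7.L (gene 397878), and the log2 fold change was 0.13 (SE 0.12, adjusted p = 0.588) in thioridazine heads and 0.40 (SE 0.12, adjusted p = 0.0555) in control heads. Of 19 alternative settings krt7.L passed in 4 in control heads and in 0 in thioridazine heads. krt7.S had 1222, 1238 and 1030.1 CPM in thioridazine heads of stage 47, against 1467, 1433 and 1195 CPM in those of stage 45. Control heads had 1451, 1455 and 1129 CPM at stage 47, against 1021, 1121 and 1030.3 CPM at stage 45. For krt7.S (gene 108709910) the thioridazine libraries overlapped between stages and the control libraries did not, with log2 fold changes of -0.23 (SE 0.13, adjusted p = 0.368) in thioridazine heads and 0.35 (SE 0.13, adjusted p = 0.141) in control heads. It passed in 2 of 19 alternative settings in control heads and in 0 in thioridazine heads.

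Of the genes named after mammalian keratins of simple epithelia (krt8, krt18 and krt19), only the krt8.2 copies passed between stages. krt8.2.S passed in both treatments and krt8.2.L in control heads. In mammals krt8 and krt18 pair with each other in the single-layered epithelia of the embryo and of glands. krt8.2.S had 45.4, 52.1 and 48.4 CPM in thioridazine heads of stage 47, against 34.9, 38.2 and 31.4 CPM in those of stage 45. Control heads had 45.8, 48.0 and 42.9 CPM at stage 47, against 29.5, 30.5 and 28.9 CPM at stage 45. The stages did not overlap, and krt8.2.S (gene 108702910) changed on the log2 scale by 0.48 (SE 0.10, adjusted p = 0.0145) in thioridazine heads and 0.62 (SE 0.10, adjusted p = 0.00455) in control heads. krt8.2.L had 16.8, 19.5 and 20.3 CPM in thioridazine heads of stage 47, against 18.1, 16.6 and 16.9 CPM in those of stage 45. Control heads had 20.0, 23.0 and 21.9 CPM at stage 47, against 14.1, 18.6 and 14.2 CPM at stage 45. The homeolog krt8.2.L (gene 108701266) passed in control heads, where its stages did not overlap, with log2 fold changes of 0.13 (SE 0.13, adjusted p = 0.654) in thioridazine heads and 0.47 (SE 0.13, adjusted p = 0.0458) in control heads. Its call in control heads held in 9 of 19 alternative settings.

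The krt8.1 copies overlapped between stages in both treatments. krt8.1.L had 574, 675 and 605 CPM in thioridazine heads of stage 47, against 493, 584 and 556 CPM in those of stage 45. Control heads had 662, 655 and 625 CPM at stage 47, against 482, 633 and 539 CPM at stage 45. Log2 fold changes of krt8.1.L (gene 108708656) were 0.18 (SE 0.12, adjusted p = 0.444) in thioridazine heads and 0.23 (SE 0.12, adjusted p = 0.290) in control heads. krt8.1.S had 361, 401 and 416 CPM in thioridazine heads of stage 47, against 326, 365 and 428 CPM in those of stage 45. Control heads had 402, 439 and 459 CPM at stage 47, against 295, 484 and 424 CPM at stage 45. Those of krt8.1.S (gene 380217) were 0.08 (SE 0.16, adjusted p = 0.860) in thioridazine heads and 0.11 (SE 0.16, adjusted p = 0.750) in control heads.

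The type I partner krt18 overlapped between stages as well. krt18.1.L had 136, 169 and 169 CPM in thioridazine heads of stage 47, against 134, 172 and 162 CPM in those of stage 45. Control heads had 164, 164 and 164 CPM at stage 47, against 113, 168 and 143 CPM at stage 45. The libraries of krt18.1.L (gene 380504) gave log2 fold changes of 0.02 (SE 0.14, adjusted p = 0.971) in thioridazine heads and 0.22 (SE 0.14, adjusted p = 0.420) in control heads. krt18.1.S had 43.7, 52.0 and 58.5 CPM in thioridazine heads of stage 47, against 47.8, 53.2 and 59.6 CPM in those of stage 45. Control heads had 59.5, 59.4 and 64.7 CPM at stage 47, against 42.4, 57.0 and 62.0 CPM at stage 45. The lowest library of krt18.1.S (gene 398482) was control replicate 1 of stage 45. For this gene the log2 fold changes were -0.06 (SE 0.14, adjusted p = 0.877) in thioridazine heads and 0.19 (SE 0.14, adjusted p = 0.496) in control heads.

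The lower copies krt18.3.L (gene 734797) and krt18.3.S (gene 108702911) were alike in this. krt18.3.L had 20.5, 18.9 and 24.9 CPM in thioridazine heads of stage 47, against 20.7, 24.9 and 24.2 CPM in those of stage 45. Control heads had 20.8, 23.9 and 31.2 CPM at stage 47, against 16.8, 25.4 and 23.1 CPM at stage 45. Both stages overlapped, with log2 fold changes of -0.12 in thioridazine and 0.22 in control heads. krt18.3.S had 13.3, 10.2 and 15.9 CPM in thioridazine heads of stage 47, against 13.4, 12.3 and 16.0 CPM in those of stage 45. Control heads had 12.7, 11.3 and 14.0 CPM at stage 47, against 9.92, 10.7 and 12.5 CPM at stage 45. The stages overlapped again, with log2 fold changes of -0.08 and 0.20 in thioridazine and control heads.

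The type I gene krt19, in mammals a keratin of simple epithelia and of some stratified ones, overlapped between stages for both homeologs. Its synonyms include krt15 and krt9, so the name does not settle its epithelium. krt19.L had 267, 330.0 and 332 CPM in thioridazine heads of stage 47, against 289, 339.9 and 344 CPM in those of stage 45. Control heads had 327, 360.1 and 354 CPM at stage 47, against 271, 401 and 315 CPM at stage 45. For krt19.L (gene 432054) the log2 fold changes were -0.07 in thioridazine and 0.08 in control heads. krt19.S had 272, 341 and 356 CPM in thioridazine heads of stage 47, against 256, 325 and 346 CPM in those of stage 45. Control heads had 321, 377 and 372 CPM at stage 47, against 239, 348 and 319 CPM at stage 45. For krt19.S (gene 779233) they were 0.06 in thioridazine and 0.24 in control heads. The krt70 pair, whose synonym marks it as an embryonic epidermal keratin, did not pass either: krt70.L had 0.37 and 0.70 and krt70.S -0.16 and 0.05 on the log2 scale in thioridazine and control heads.

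Each treatment had further calls among keratins of lower level. In control heads krt58.S (gene 108702172) rose, at 7.33 ± 1.11 CPM at stage 47 against 4.53 ± 0.127 CPM at stage 45, its log2 fold change being 0.69 (SE 0.19, adjusted p = 0.0479); in thioridazine heads it was 0.20 (SE 0.19, adjusted p = 0.638). In thioridazine heads krt80.L (gene 108708660), a type II gene linked in mammals to late epithelial differentiation, rose to 18.8 ± 3.73 CPM at stage 47, against 12.6 ± 0.225 CPM at stage 45, the log2 fold change being 0.57 (SE 0.15, adjusted p = 0.0423); in control heads it was 0.37 (SE 0.15, adjusted p = 0.163). Neither difference between treatments passed (adjusted p = 1.00 and 1.00). The tested genes with adult keratin synonyms, krt12.6.S and krt55.L, reached at most 2.03 CPM (krt12.6.S) in any library and did not pass between stages.

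Of the 10 calls in thioridazine heads, krt78.1.L, krt23.S and krt15.2.L passed in every fit that left out 1 library, and of the 13 in control heads krt78.1.L, krt12.5.L, krt23.S and krt8.2.S did. Across those fits the number called ran between 4 and 12 in either treatment. The share of all genes called in each of those fits is not given beside these counts. The thioridazine count was 6, 6 and 5 without thioridazine replicates 1, 2 and 3 of stage 45, and 6, 4 and 5 without replicates 1, 2 and 3 of stage 47. The control count was 5 without control replicate 3 of stage 45, 5 without control replicate 1 and 4 without control replicate 2 of stage 47, and 8 without thioridazine replicate 2 or 3 of stage 47.

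**Figure D3:**
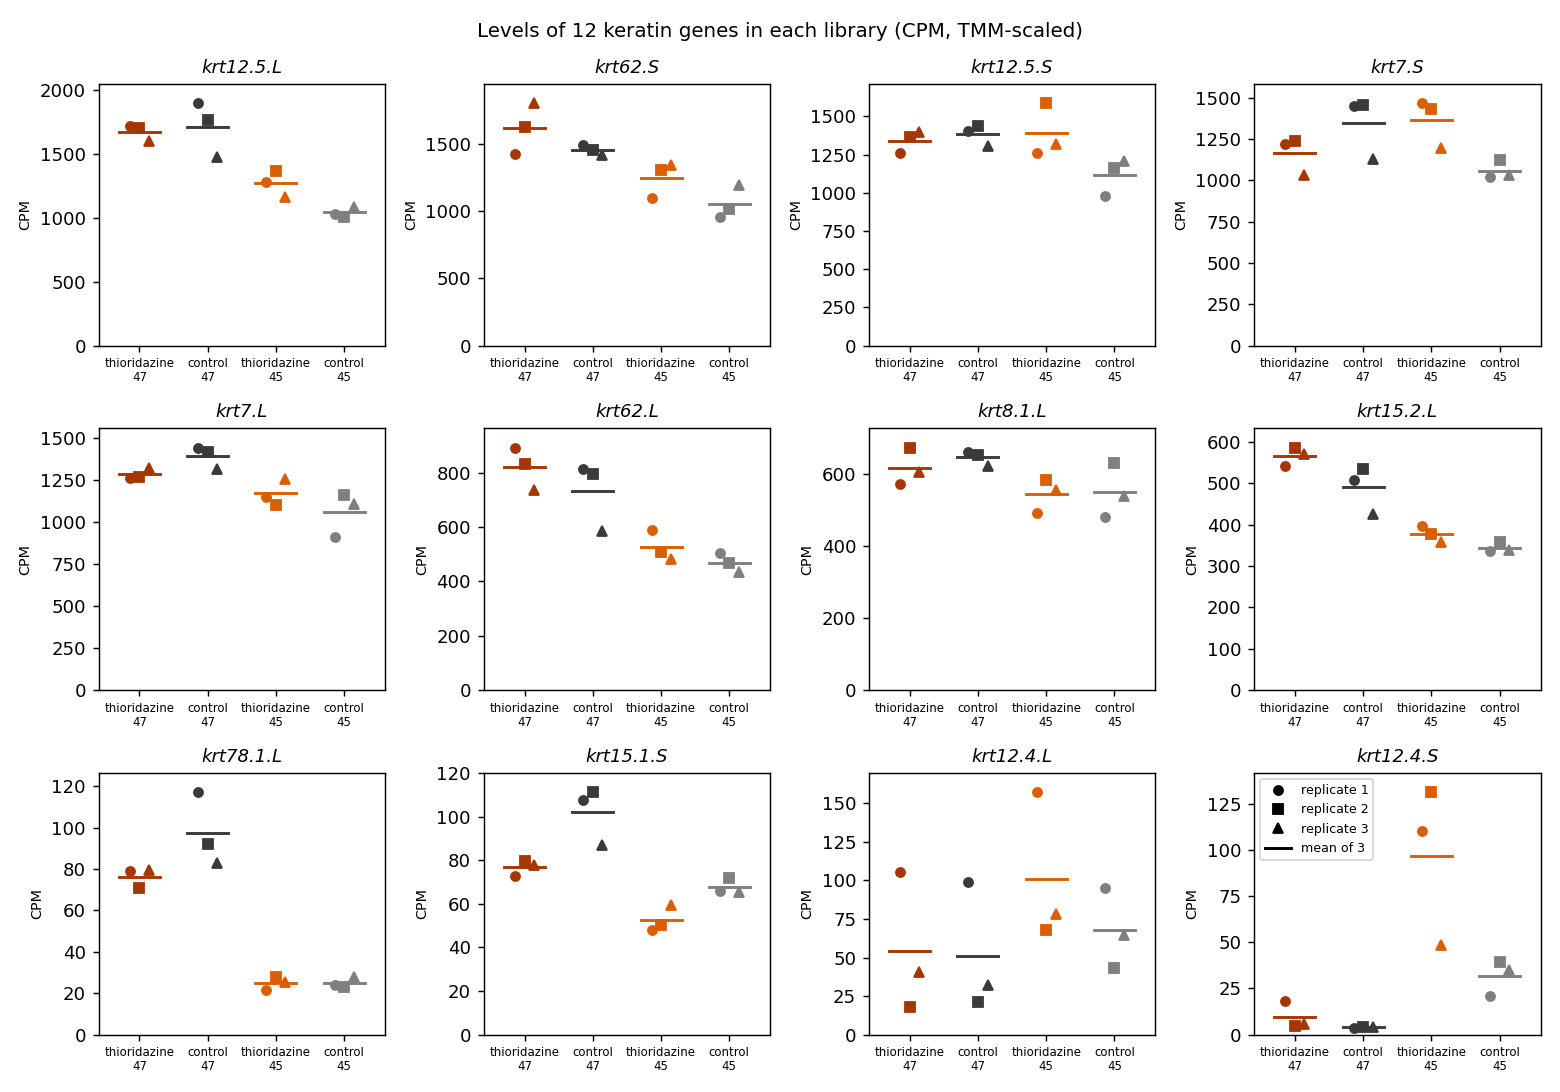
CPM of 12 keratin genes in each library (symbols are replicates 1 to 3, bars are means of 3; each vertical axis starts at 0). Stage 47 libraries lie above stage 45 libraries for krt62.L, krt15.2.L, krt15.1.S and krt78.1.L in both treatments, and below them for krt12.4.S.

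The comparison of treatments asks how heads malformed after thioridazine differ from control heads of the same stage. At stage 45 no keratin passed, and neither did any other gene (0% of 27050 genes, edgeR; DESeq2 called 0 keratins and 76 genes). At an unadjusted p under 0.05 there were 5 keratins higher (11.9%, beside 2.25% of all genes) and 2 lower (4.76%, beside 3.08%). Libraries did not overlap for 5 keratins with thioridazine higher (4.19% of all genes) and 4 with thioridazine lower (5.36% of all genes). The median log2 fold change was 0.09 over keratins and 0.01 over all genes, and 25 of 42 were above 0, against 53.3% of all genes. The median SE of a keratin's log2 fold change was 0.165 at either stage, so differences of that size lie within the error.

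The higher keratins with the smallest p at stage 45 were krt12.4.S and krt7.S, and neither passed. The embryonic epidermal keratin krt12.4.S measured 110.1, 131 and 48.5 CPM in thioridazine heads, against 21.1, 39.1 and 34.9 CPM in controls. All thioridazine libraries lay above all controls, with replicates 1 and 2 far above replicate 3. Its log2 fold change was 1.61 (SE 0.49, adjusted p = 0.663). For krt7.S the values were 1467, 1433 and 1195 CPM in thioridazine heads, against 1021, 1121 and 1030.3 CPM in controls, again without overlap, and the log2 fold change was 0.37 (SE 0.13, adjusted p = 0.737). Both krt12.5 homeologs and krt8.2.S also had no overlap at this stage, with log2 fold changes of 0.29 (krt12.5.L), 0.31 (krt12.5.S) and 0.23 (krt8.2.S), none past the threshold.

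The lower keratins with the smallest p at stage 45 were krt15.1.S and krt61.L. For krt15.1.S the libraries held 48.2, 50.4 and 59.3 CPM in thioridazine heads, against 65.8, 72.1 and 65.6 CPM in controls. There was no overlap, and the log2 fold change was -0.36 (SE 0.11, adjusted p = 0.614). The type II gene krt61.L (gene 495267) had 1.83, 1.67 and 0.984 CPM in thioridazine heads, against 2.08, 3.41 and 2.14 CPM in controls, with no overlap, the log2 fold change being -0.76 (SE 0.32, adjusted p = 0.869). The remaining lower genes without overlap were krt12.2.L at -0.14 and krt80.L at -0.14 on the log2 scale.

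The labels do not say that thioridazine and control libraries of the same number belong together. A fit that took them as pairs within a stage called 1 keratin at stage 45. This was krt12.4.L, with 157, 67.9 and 78.5 CPM in thioridazine heads, against 95.3, 43.5 and 64.5 CPM in controls. The groups overlapped, but in each of the 3 pairs thioridazine was higher, by 0.72, 0.64 and 0.28 on the log2 scale. The paired fit gave a log2 fold change of 0.55 with an adjusted p of 0.0141, where the fit without pairs gave 0.58 (SE 0.76, adjusted p = 1.00). The gene was singled out after its values were seen. The share of all genes called by the paired fit is not given here, so this call does not set keratins apart from other genes.

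At stage 47 no keratin passed either, while 20 genes were higher (0.0739% of those tested) and 0 lower by edgeR; DESeq2 called 0 keratins. At an unadjusted p under 0.05 there were 1 keratin higher (2.38%, beside 1.94% of all genes) and 4 lower (9.52%, beside 1.59%). Libraries did not overlap for 3 keratins with thioridazine higher (4.78% of all genes) and 5 with thioridazine lower (4.82%). The median log2 fold change was -0.09 over keratins and 0.00 over all genes, and 13 of 42 were above 0, against 51% of all genes.

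The higher keratins with the smallest p at stage 47 were krt12.6.S and krt12.4.S. The adult keratin copy krt12.6.S (gene 373761) had 0.675, 0.756 and 2.03 CPM in thioridazine heads, against 0.333, 0.413 and 0.595 CPM in controls, a difference of few counts in which replicate 3 of the thioridazine heads was the highest. Its log2 fold change was 1.31 (SE 0.53, adjusted p = 1.00). For krt12.4.S the values were 18.0, 4.87 and 5.68 CPM in thioridazine heads, against 3.57, 4.31 and 4.11 CPM in controls. The groups did not overlap, the highest value being thioridazine replicate 1, and the log2 fold change of 1.27 (SE 0.61, adjusted p = 1.00) became 0.39 without that library. The homeolog krt12.4.L had 106, 17.7 and 40.4 CPM in thioridazine heads, against 98.8, 21.2 and 32.5 CPM in controls, and its log2 fold change of 0.12 (SE 0.77, adjusted p = 1.00) changed sign with the library left out (-0.80 to 1.03).

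The lower keratins with the smallest p at stage 47 were krt15.1.S and krt20.L. For krt15.1.S the values were 72.8, 79.5 and 78.0 CPM in thioridazine heads, against 107, 111 and 87.1 CPM in controls. As at stage 45 every thioridazine library lay below every control library, the log2 fold change being -0.41 (SE 0.11, adjusted p = 0.542). The type I gene krt20.L (gene 100036883), in mammals a keratin of the gut lining, had 3.51, 2.77 and 5.76 CPM in thioridazine heads, against 5.32, 10.3 and 21.8 CPM in controls. These groups overlapped, and the log2 fold change of -1.65 (SE 0.56, adjusted p = 1.00) became -0.98 without control replicate 3, the library with digestive enzymes. The krt12.1.L gene (gene 108701753) had 2.36, 0.840 and 3.90 CPM in thioridazine heads, against 5.15, 8.45 and 10.1 CPM in controls, with no overlap, the log2 fold change being -1.74 (SE 0.67, adjusted p = 1.00).

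At stage 47 the 8 keratins with the most counts had log2 fold changes between -0.21 (krt7.S) and 0.21 (krt15.2.L), and none passed. Among these krt15.2.L was without overlap and higher in thioridazine heads. At the same stage krt78.1.L, krt23.S and krt18.1.S were without overlap and lower, at -0.35, -0.32 and -0.25 on the log2 scale. The genes krt8.1, krt18.1 and krt19 had log2 fold changes between -0.10 and 0.15 at stage 45 and between -0.25 and -0.05 at stage 47. The lower krt8.2 and krt18.3 copies ran from 0.09 (krt18.3.L) to 0.33 (krt18.3.S) at stage 45. At stage 47 krt8.2.L and krt18.3.L were at -0.20 and -0.24, while krt8.2.S and krt18.3.S were at 0.09 and 0.05.

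**Figure D4:**
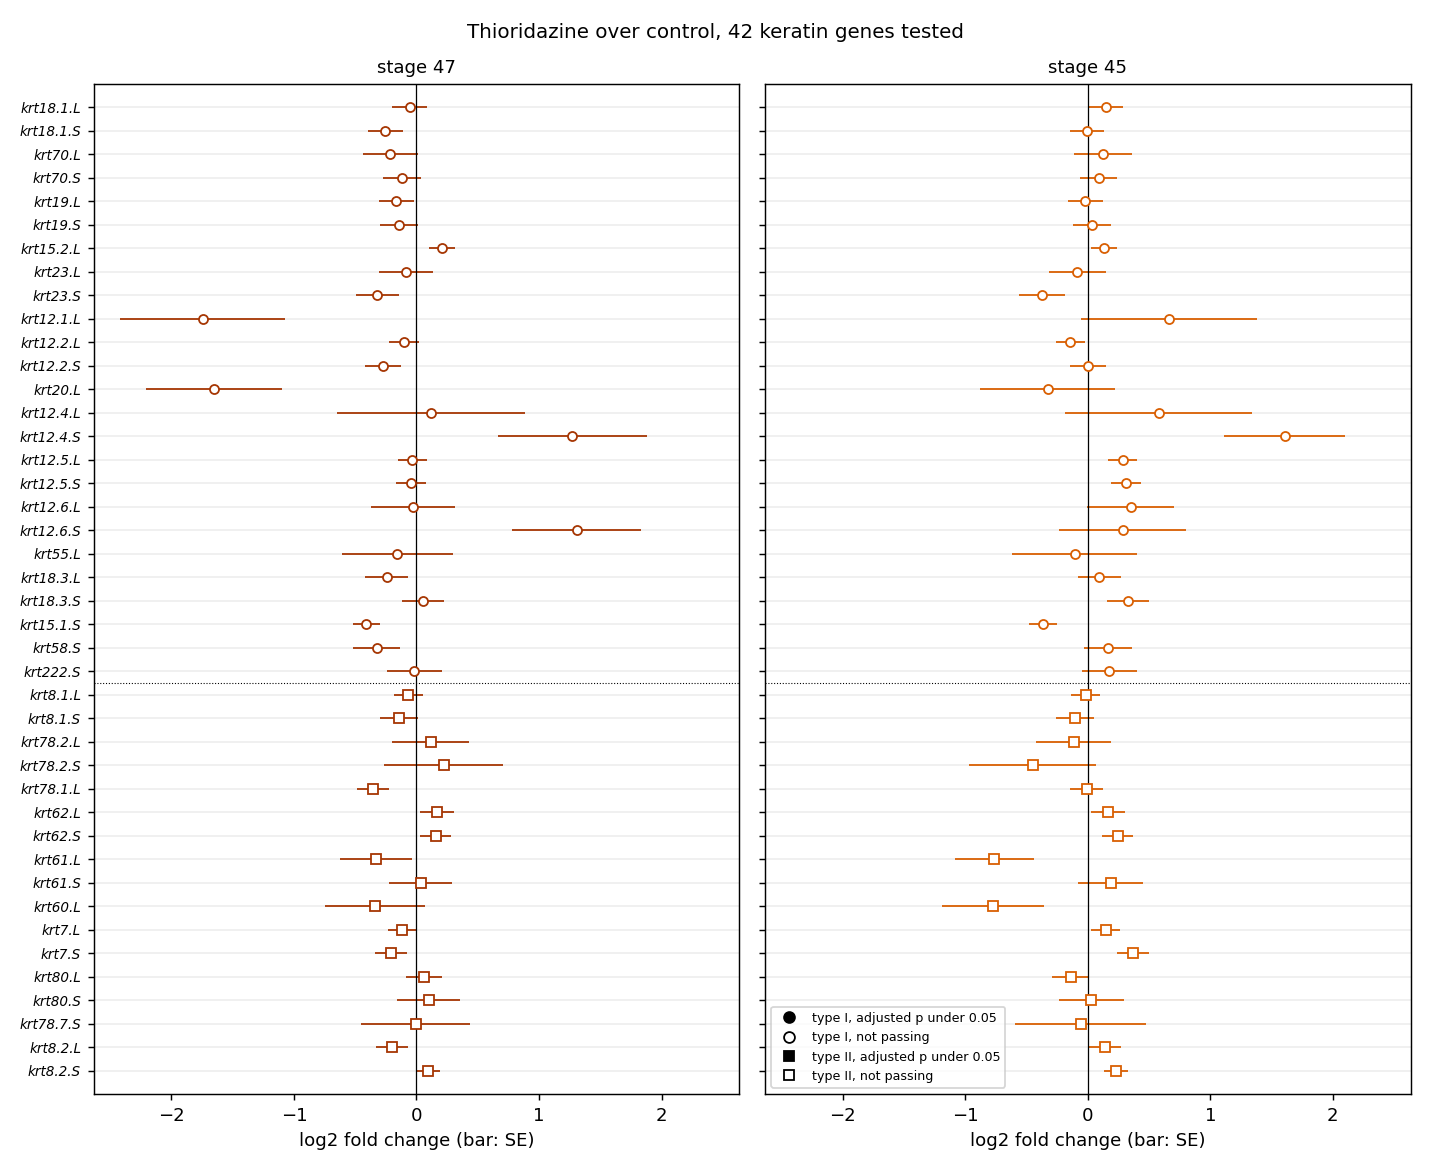
Log2 fold change of thioridazine over control with its SE for the 42 keratins tested, at stage 47 (left) and stage 45 (right). No symbol is filled, since no keratin passed an adjusted p of 0.05; krt15.1.S lies below 0 at both stages and krt12.4.S above 0 at both.

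Averaged over both stages, the treatment contrast again called 0 of 42 keratins, beside 0.137% of all genes higher and 0.00739% lower (edgeR; 5 keratins higher and 4 lower at an unadjusted p under 0.05, beside 3.19% and 3.7% of all genes). The smallest adjusted p was that of krt15.1.S, the log2 fold change being -0.39 (SE 0.08, adjusted p = 0.0926). Thioridazine was lower than the same-numbered control in all 6 pairs of both stages for krt15.1.S, krt23.S and krt60.L (7.14% of keratins, beside 3.57% of all genes). It was higher in all 6 for krt12.4.S, krt12.6.S, krt15.2.L and krt62.L (9.52%, beside 4.28% of all genes). The call of krt15.1.S depended on the fit, and it passed with the replicate number as a block (adjusted p = 0.0364), with a block within each stage (adjusted p = 0.00363), with DESeq2 (adjusted p = 0.00268) and without control replicate 3 of stage 47 (adjusted p = 0.0456). The block within each stage also called krt12.4.L (log2 fold change 0.31, adjusted p = 0.0389). The share of all genes called by these alternative fits is not given here. Their calls therefore do not set krt15.1.S or krt12.4.L apart from other genes. The next keratins were krt12.4.S at 1.44 (SE 0.39, adjusted p = 0.371) and krt8.2.S at 0.16 (SE 0.07, adjusted p = 0.653) among the higher and krt23.S at -0.35 (SE 0.13, adjusted p = 0.538) among the lower.

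The difference of the treatment effects, stage 47 minus stage 45, was above 0 for 13 of 42 keratins, against 49.1% of all genes, and had a median of -0.16. The smallest p among keratins were those of krt7.S at -0.58 (SE 0.19, adjusted p = 1.00) and krt12.1.L at -2.41 (SE 0.98, adjusted p = 1.00), and neither passed. Among same-numbered libraries, krt7.S was higher in thioridazine heads in 3 of 3 at stage 45 and in 0 of 3 at stage 47.

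Markers of other cells were high in some of the libraries in which krt20.L, krt12.1.L or krt12.4.S was high, but not in all groups. The liver and gut list (27 genes, 14 tested) summed to 86.3 to 326 CPM in thioridazine heads and 343 to 926 CPM in control heads at stage 47, and to 58.2 to 342 CPM in thioridazine heads and 84.3 to 220.3 CPM in control heads at stage 45. One of its genes, a trypsinogen, had no count in any library. Control replicate 3 of stage 47 was the highest library for the list, for krt20.L and for krt12.1.L, and thioridazine replicate 1 was the highest of its group at stage 45 for all of these. In thioridazine heads of stage 47 the list was highest in replicate 1, while krt20.L and krt12.1.L were highest in replicate 3. In control heads of stage 45 the list was lowest in replicate 1, where krt20.L was the highest of its group and krt12.1.L the lowest. The part of liver and gut tissue in the krt20.L and krt12.1.L values was not tested.

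The skin secretory cell list (9 genes, 4 tested) summed to 55.3 to 223 CPM in thioridazine heads and 51.4 to 76.3 CPM in control heads at stage 47, and to 389 to 945 CPM in thioridazine heads and 215 to 315 CPM in control heads at stage 45. At stage 45 most of it was itln1.L (gene 398574), an intelectin secreted by goblet cells of the embryonic skin. Its levels were 191, 22.3 and 41.1 CPM in thioridazine heads and 43.3, 35.6 and 17.8 CPM in control heads at stage 47, and 914, 431 and 360.2 CPM in thioridazine heads and 276, 186 and 225 CPM in control heads at stage 45. Like krt12.4.S it was lower at stage 47 than at stage 45, without overlap of the stages in either treatment and with thioridazine replicate 1 as the highest library of stage 47, but it did not pass (log2 fold change -2.74, adjusted p = 0.0948 in thioridazine heads; -2.84, adjusted p = 0.0805 in control heads). Within control heads replicate 1 had the highest itln1.L and the lowest krt12.4.S of its group at both stages. The other 8 genes of the list stayed at 21.0 CPM or less, so at stage 45 its sums follow itln1.L and not the list. At stage 47 the part of itln1.L varied. It was 191 of 223 CPM in thioridazine replicate 1, but 22.3 of 55.3 CPM in thioridazine replicate 2 and 17.8 of 51.4 CPM in control replicate 3. For thioridazine over control, 1 of the 4 tested genes had a log2 fold change above 0 at stage 45 (median -0.32) and 2 at stage 47. For stage 47 over stage 45, 2 of the 4 were above 0 in thioridazine heads and 1 in control heads. The part of these cells in the krt12.4 values was not tested.

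**Figure D5:**
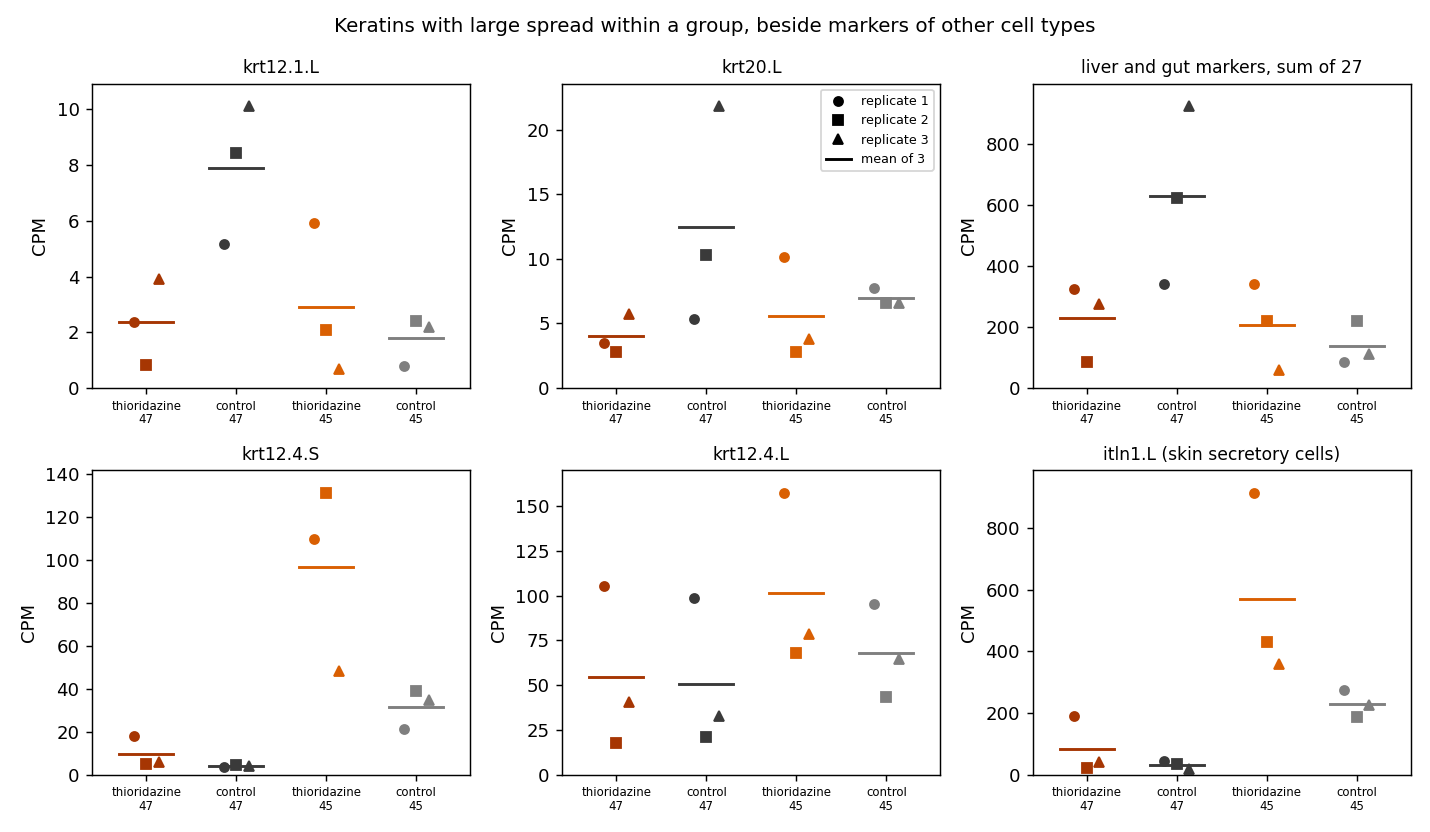
CPM per library of krt12.1.L, krt20.L and the summed liver and gut list (top) and of krt12.4.S, krt12.4.L and itln1.L (bottom); symbols are replicates 1 to 3 and bars are means of 3. Control replicate 3 of stage 47 is the highest library of the top row, and thioridazine replicate 1 is the highest library of stage 47 in the bottom row.

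Both copies were tested for 16 pairs, and their log2 fold changes had the same sign in 11 pairs for thioridazine over control at stage 45 and 12 at stage 47, and in 11 pairs in thioridazine heads and 14 in control heads for stage 47 over stage 45. With homeologs and numbered copies of a name summed into 17 rows, 5 rose between stages in thioridazine heads (krt15, krt23, krt62, krt78 and krt80) and 6 in control heads (krt12, krt15, krt23, krt58, krt62 and krt78), and none fell. The krt12.4.S decrease is thus not seen in the summed krt12 row, which the krt12.5 copies dominate. The share of all genes called by the summed fit is not given here. The counts of summed rows called therefore do not set keratins apart from other genes.

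Other genes of the keratin filament system were counted from fixed lists, and the counts stand beside the share of all genes tested that rose (2.09% in thioridazine and 3.03% in control heads) or fell (2.77% and 3.21%) between stages. Of 29 tested genes of desmosomes and hemidesmosomes, 3 rose (10.3%) and 0 fell between stages in thioridazine heads, and 9 rose (31%) and 0 fell in control heads. The hemidesmosome collagen col17a1.L had 311 ± 33.6 CPM at stage 47 against 196 ± 42.9 CPM at stage 45 in thioridazine heads, the change on the log2 scale being 0.67 (SE 0.16, adjusted p = 0.0283), and 302 ± 44.6 against 155 ± 20.9 CPM in control heads, with 0.96 (SE 0.16, adjusted p = 0.00569). The plakophilin pkp1.S rose in both, to 0.540, 0.840 and 1.61 CPM at stage 47 in thioridazine heads, where all 3 libraries of stage 45 had 0 counts, and to 1.91, 3.01 and 2.08 CPM in control heads, against 0.154, 0.166 and 0.520 CPM at stage 45. None of the 29 passed between treatments at either stage or over both. For thioridazine over control at stage 45, 25 of 29 had log2 fold changes above 0, with a median of 0.20, against 53.3% and a median of 0.01 over all genes, and at stage 47 14 of 29 did.

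Of the 20 gene names listed for the cornified envelope and its crosslinking, only 8 had a gene of that name here, so the list covers the envelope in part. Of its 15 tested genes, 4 rose in thioridazine heads (26.7%) and 7 in control heads (46.7%) between stages, and 0 fell. One of those in both counts, aspn.L, is asporin, a proteoglycan of the extracellular matrix and no envelope protein. Without both asporin copies, 3 of 13 rose in thioridazine heads and 6 of 13 in control heads. The transglutaminase tgm5.S had 16.9, 17.3 and 14.2 CPM at stage 47 against 6.75, 8.50 and 7.87 CPM at stage 45 in thioridazine heads (log2 fold change 1.07, adjusted p = 0.00342), and 19.4, 17.1 and 14.7 CPM against 9.69, 9.15 and 7.34 CPM in control heads (log2 fold change 0.97, adjusted p = 0.00513). The median log2 fold change of the list was 0.53 in thioridazine and 0.59 in control heads, and none of its genes passed between treatments.

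The ouro genes, larval skin antigens with old keratin names that the symbol rule leaves out, also rose. All 3 passed in both treatments, with a median log2 fold change of 2.68 in thioridazine and 2.02 in control heads. The level of ouro1.S averaged 101 ± 14.1 CPM at stage 47 against 15.8 ± 3.13 CPM at stage 45 in thioridazine heads, and 92.0 ± 31.9 against 22.8 ± 3.99 CPM in control heads. None passed between treatments.

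Of 37 epidermal transcription factor genes 3 rose (8.11%) and 0 fell between stages in thioridazine heads, and 3 rose (8.11%) and 2 fell (5.41%) in control heads. The 2 that fell are a share near that of all genes. The grainyhead factor grhl3.L, an activator of epidermal barrier genes, rose in both, and had 46.0 ± 3.86 CPM at stage 47 against 32.5 ± 2.53 CPM at stage 45 in thioridazine heads. This was the only list of the keratin filament system or its regulators with a gene past the threshold between treatments, 2 of 37 at stage 47 (5.41%, beside 0.0739% of all genes). Both are homeologs of elf3, and the list was proposed with earlier results of these data known. That share therefore describes elf3 and not the list. The epithelial factor elf3 was higher in thioridazine heads at stage 47, with 141, 109 and 109 CPM for elf3.S in thioridazine heads, against 63.1, 53.5 and 63.9 CPM in controls, without overlap, the log2 fold change being 0.99 (SE 0.12, adjusted p = 0.00865). For elf3.L the values were 55.8, 40.7 and 48.1 CPM in thioridazine heads, against 22.9, 24.9 and 29.2 CPM in controls, the log2 fold change being 0.91 (SE 0.15, adjusted p = 0.0329).

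Of 31 genes of other intermediate filaments, 1 rose and 1 fell between stages in thioridazine heads (nes.L for nestin and lmnb1.L for lamin B1; 3.23% each way, near the share of all genes). In control heads 1 rose (nes.L, 3.23%) and 4 fell (bfsp2.S, bfsp2.L, lmnb1.L and des.2.S, 12.9%). Their median log2 fold change was 0.03 in thioridazine and -0.11 in control heads, beside the keratin medians of 0.20 in thioridazine and 0.39 in control heads. Of 23 epithelial adhesion genes 0 passed between stages in thioridazine heads, while 6 rose (26.1%) and 0 fell in control heads, among them cdh1.S, the epithelial cadherin, with 248 ± 33.8 CPM at stage 47 against 165 ± 14.3 CPM at stage 45. Neither list had a gene past the threshold between treatments. Of the adhesion genes 21 of 23 had log2 fold changes above 0 for thioridazine over control at stage 45, with a median of 0.21.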

How the data were processed

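RNA of whole tadpole heads was sequenced as single-end 100 bp reads from TruSeq v2 libraries, which do not keep strand, per the labels' protocols. The authors deposited raw read counts per gene for each of 12 libraries, made with Trimmomatic, HISAT2 and HTSeq, with DESeq2 also named, per the submitters' processing notes. The sources used here do not give versions, the genome build or the handling of reads with several matches. Names came from a RefSeq gene table of the assembly Xenopus_laevis_v10.1, which named 33597 of 37018 identifiers and served for names and neighbour order alone. Keratin types follow the cluster a gene lies in, with krt18 as type I and krt8 as type II.

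Counts were tested in R 4.3.3 with edgeR 4.0.16 (TMM scaling, filterByExpr, robust quasi-likelihood fit of all 12 libraries with 1 coefficient per group), which kept 27050 genes. The Benjamini-Hochberg adjustment ran over those genes, and an adjusted p under 0.05 counted as passing. Every adjusted p in the text is from that test unless another is named. Each SE was derived from that test, as the size of the log2 fold change divided by the square root of its F statistic. The fit was tested first on counts simulated without any effect shared by same-numbered libraries, so that test does not bear on pairing. CPM used no pseudocount, and values are mean ± SD with n = 3.

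Members were taken by symbol alone, but the group of genes, the lists and the naming rule were proposed with earlier results of these data known, so none of them is independent of the data. Values per library are given for the 8 keratins with the most counts, up to 6 raised and 6 lowered ones with the smallest p per contrast (or the first 2 where none passed), and krt12.4.S, krt8, krt18 and krt19; krt12.4.L and krt12.1.L at stage 47 were added after their values were seen. From each companion list the called genes with the smallest p were named.

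Deviations of same-numbered thioridazine and control libraries from their group means correlated at 0.336, 0.586 and 0.326 at stage 45. At stage 47 they correlated at 0.18, 0.225 and 0.471. Between stages, same-numbered libraries correlated at 0.562, 0.0401 and 0.0873 in thioridazine and 0.181, 0.0141 and 0.352 in control heads. The labels do not state a pairing, and differently numbered libraries were not compared in this way. Fits with pairs therefore rest on an assumption drawn from the same data. Libraries of a group correlated at 0.966 to 0.986 (Spearman) and none were identical. Alternatives were RLE and upper-quartile scaling, DESeq2 1.42.0, other filters, a fit of only the groups compared, replicate blocks, summed copies and leaving out each library.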

Additional observations from a re-analysis of the deposited data

How the results depend on the processing

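The keratin sums, and the finding that no keratin passed for thioridazine over control at stage 47 or for the difference of treatment effects, held under every alternative run. With the replicate block within each stage 1 keratin passed at stage 45 and 2 over both stages; the block over both stages and DESeq2 each called 1 over both stages, and leaving out 1 library called 0 to 1. The block left the stage counts within 1.5 times: 14 in thioridazine heads and 16 in control heads. A fit of only the groups compared called 7 in control heads. Summed copies gave 5 calls in thioridazine heads and 6 in control heads, over 17 rows tested instead of 42. Leaving out 1 library gave 4 to 12 in thioridazine heads and 4 to 12 in control heads. Leaving out libraries or groups and summing copies gave fits with fewer libraries or rows, and the cause of the changed counts was not tested. These keratin counts stand without the share of all genes called by the same fit. They therefore do not show a change particular to keratins. The log2 fold change of krt12.4.L for thioridazine over control ran from -0.80 to 1.03 at stage 47 and from -0.11 to 0.80 over both stages when 1 library was left out, with -0.25, -0.12 and -0.80 as the values below 0 at stage 47. Of 93 other fold changes of named keratins, 29 changed sign in at least 1 setting, none of them past the threshold and none above 0.145 in size. Another scaling moved the median of all genes by less than 0.1 on the log2 scale. With 3 libraries a group, the median SE of a keratin between treatments was 0.165, which is not a limit of detection. Larger differences did not pass either, such as log2 fold changes of 0.37 for krt7.S and 1.61 for krt12.4.S at stage 45. The lack of calls thus does not show that the treatments were alike. The 29 untested keratins had too few counts for any statement.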
